A study of Arabidopsis thaliana with 12 samples.

Results

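The iron deficiency response of *clf* roots was read from 6 of the 12 libraries of the series, 3 from iron deficient *clf* roots (-Fe) and 3 from iron sufficient *clf* roots (+Fe). It was described across the 20168 genes, of 32678 counted, that had enough reads to be tested. Seedlings of *Arabidopsis thaliana* grew for 12 days on B5 medium and then for 3 days on -Fe medium, which holds the iron chelator ferrozine and no added iron, or on +Fe medium. Both *clf* groups carry the same single T-DNA insertion allele of *CURLY LEAF*, *clf-29* in the study's methods, and the partly redundant gene *SWN* is intact in them. The other 6 libraries come from Col-0 wild type roots on the same media, 3 on -Fe and 3 on +Fe medium, and were used to estimate the spread and to compare the responses of the genotypes. The sample titles mark the media by bare numbers with no unit, so no iron concentration is given here. The question is which genes respond to iron deficiency where a main Polycomb methyltransferase is missing.

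Arabidopsis takes up iron by acidifying the soil, reducing ferric iron with *FRO2* and importing ferrous iron with *IRT1*, under the bHLH factor *FIT* and its partners of the Ib subgroup. IRONMAN (IMA) peptides act upstream, by sequestering the BTS and BTSL ubiquitin ligases that keep the response low, while *PYE* and ferritins belong to the internal management of iron. CLF is the main methyltransferase of Polycomb repressive complex 2 (PRC2) in vegetative tissue, which places the repressive mark H3K27me3 on histones.

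Transcripts of *CLF* (AT2G23380, chr2:9955092-9960386 of TAIR10.1) were at 15.4, 12.6 and 13.2 CPM (read counts scaled to library size with the TMM method) in *clf* -Fe and at 15.8, 10.3 and 14.9 in *clf* +Fe roots. Wild type roots held 50.9 to 55.1 CPM on -Fe and 43.6 to 49.7 CPM on +Fe medium, above every *clf* library. *CLF* was lower in *clf* by a log2 fold change of -1.93 (SE 0.17, edgeR adjusted p = 0.000871) on -Fe and -1.75 (SE 0.17, edgeR adjusted p = 0.00341) on +Fe medium, and did not differ detectably between the iron conditions within *clf* (log2 fold change 0.01, SE 0.16, edgeR adjusted p = 0.99). The gene overlaps a neighbour at either end, over 58 and 22 bases, and whether the counting used strand is unknown.

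Total counts ranged from 23278283 to 25642058 in *clf* -Fe and from 21002002 to 28281420 in *clf* +Fe libraries. A library of each *clf* group stood apart from its replicates. The mean correlation of log2 CPM with the rest of the group was 0.953 for *clf* -Fe replicate 1 (0.967 and 0.968 for the others) and 0.95 for *clf* +Fe replicate 2 (0.968 and 0.97). The morning clock gene *CCA1* was at 4.88 CPM in that -Fe library, against 45.2 and 48.2 in the other -Fe libraries, and at 2.97 CPM in that +Fe library, against 31.8 and 30.9 in the other +Fe libraries. The evening gene *TOC1* stood the other way, at 122 and 126 CPM in those libraries and at 42.6 to 49.7 CPM in the remaining 4 *clf* libraries. Replicate 1 of each wild type group had the same clock pattern, with *CCA1* at 4.57 CPM on -Fe and 6.67 CPM on +Fe medium. Root identity genes (8 markers such as *PYK10* and *SCR*) summed to 9608 to 12900 CPM in *clf* -Fe and 10930 to 14850 CPM in *clf* +Fe roots, and none passed the test. Photosynthesis genes, markers of green shoot tissue, summed to 259, 276 and 499 CPM in *clf* -Fe and to 619, 1609 and 775 CPM in *clf* +Fe libraries. All 20 tested had negative log2 fold changes (median -1.56), and 0 passed the test. In whole roots, fewer cells of a type and less RNA per cell cannot be told apart.

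Iron deficiency raised 257 genes in *clf* roots, 1.27% of the genes tested, and lowered 99, or 0.491%, at an edgeR adjusted p under 0.05. In all of them the 3 -Fe and the 3 +Fe libraries did not overlap. Genes that did not pass, such as *FIT*, *IRT1* and *RSL2*, also had no overlap. The share over all genes tested was not counted, so nothing is read from this separation. The rises were larger than the falls. Of the raised genes 223 changed at least 2-fold and 72 at least 16-fold, against 74 and 2 of the lowered genes. The median log2 fold change was 2.19 over raised and -1.25 over lowered genes, beside -0.0106 over all genes tested. Of the raised genes 60 had a mean under 1 CPM in *clf* +Fe roots, beside 1714 of the 20168 genes tested, and 5 had no read there. Genes this low in +Fe roots could enter the test through their -Fe libraries, so nothing is read from this count. Raised genes together took 6.16, 6.46 and 5.44% of all counts in *clf* -Fe libraries and 1.74, 1.49 and 1.78% in *clf* +Fe libraries.

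The size of these lists depended on single libraries. Dropping *clf* -Fe replicate 2 left 119 raised and 34 lowered genes. Dropping *clf* +Fe replicate 1, 2 or 3 left 91, 133 or 92 raised and 34, 42 or 34 lowered genes. Dropping *clf* -Fe replicate 1 left 48 lowered genes, and dropping wild type +Fe replicate 2 left 59. With 1 wild type library fewer the lists could also grow, to 424 raised and 194 lowered genes when -Fe replicate 1 was dropped, and to 151 lowered genes when +Fe replicate 1 was dropped. With both *clf* libraries that stood apart left out, 107 genes were raised, 97 of them among the 257, and 24 were lowered, all among the 99. The split was more even by other methods, with 570 raised and 365 lowered by DESeq2, and 248 raised and 198 lowered by limma on log2(FPKM + 1), where the median over all genes stood at -0.105.

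**Figure D1:**
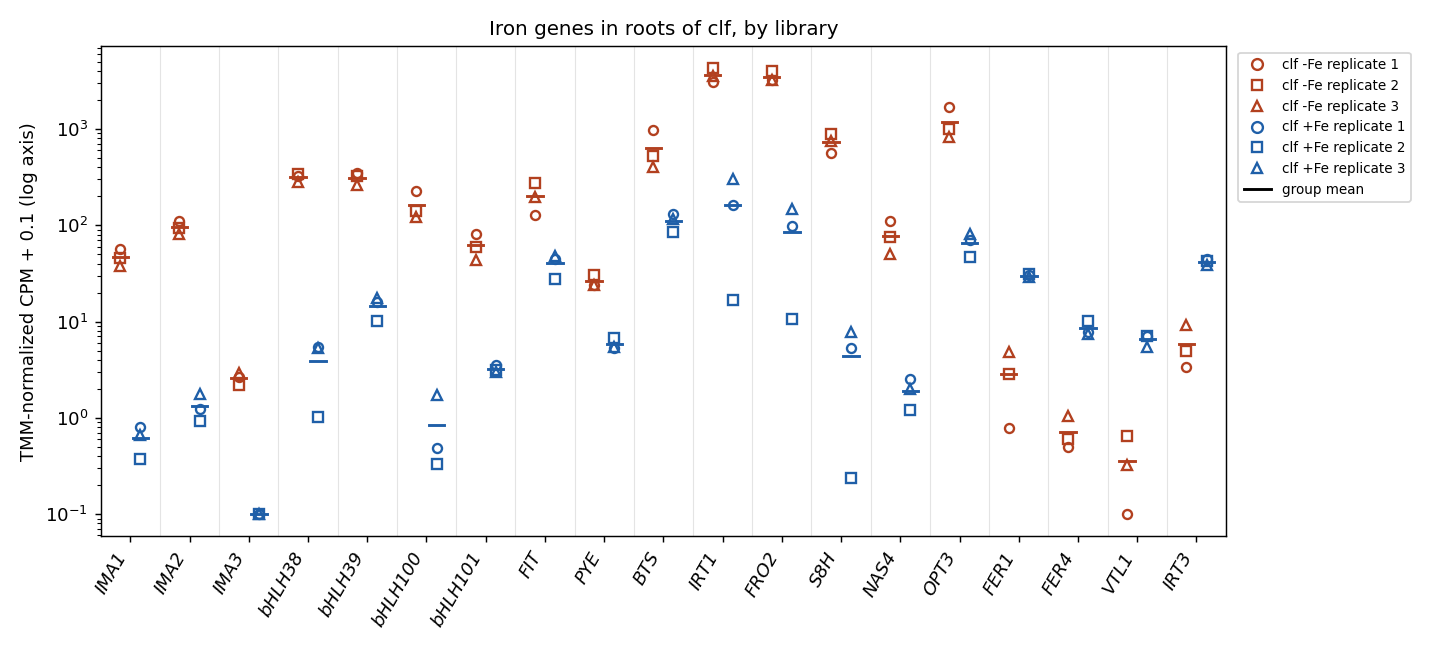
TMM-normalized CPM plus 0.1 (log axis) of 19 iron genes in the 6 *clf* libraries, -Fe in red left of +Fe in blue, with a symbol per replicate and a bar at the group mean. *IMA3* had no read in +Fe roots, *FRO2* and *IRT1* were at 10.6 and 16.8 CPM in +Fe replicate 2, and the storage genes *FER1*, *FER4* and *VTL1* stood lower in all -Fe libraries.

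The IMA genes were among the most strongly raised. *IMA1* (AT1G47400) and *IMA2* (AT1G47395) are neighbours on chromosome 1 that encode short peptides. Their coding sequences are shown because they are alike enough that some reads may match both. RefSeq (TAIR10.1, plus strand) places the coding sequence of *IMA1* at chr1:17385818-17385970 and that of *IMA2* at chr1:17383117-17383269. Over 153 bases 136 are identical, 88.9%, and capitals mark the 17 bases that differ, none of which lies in the last 54 bases.
IMA1: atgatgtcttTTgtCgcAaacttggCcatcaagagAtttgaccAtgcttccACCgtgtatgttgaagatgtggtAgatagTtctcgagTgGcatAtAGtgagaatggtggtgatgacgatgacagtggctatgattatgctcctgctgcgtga
IMA2: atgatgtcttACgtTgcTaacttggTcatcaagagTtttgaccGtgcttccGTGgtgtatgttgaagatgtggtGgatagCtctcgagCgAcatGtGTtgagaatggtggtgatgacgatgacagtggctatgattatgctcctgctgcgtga

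The last 54 bases, stop codon included, code for the conserved end of the peptide family. They are shown for *IMA2* (chr1:17383216-17383269) and *IMA3* (AT2G30766, chr2:13108158-13108211), with capitals at the 37 bases shared by all 3 genes.
IMA2: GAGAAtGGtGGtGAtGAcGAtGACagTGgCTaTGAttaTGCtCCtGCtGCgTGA
IMA3: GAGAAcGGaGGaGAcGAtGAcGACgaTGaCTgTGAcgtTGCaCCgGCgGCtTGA

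*IMA2* was at 111, 93.9 and 81.4 CPM in *clf* -Fe roots, against 1.13, 0.82 and 1.68 CPM in *clf* +Fe roots, a log2 fold change of 6.30 (SE 0.30, edgeR adjusted p = 3.56e-06). *IMA1* was at 56.2, 46.0 and 37.6 CPM on -Fe, against 0.71, 0.27 and 0.56 CPM on +Fe medium (log2 fold change 6.46, SE 0.48, edgeR adjusted p = 6.51e-05). In both genes the -Fe libraries lay close together and far above the +Fe libraries. *IMA3* was at 2.58, 2.07 and 2.81 CPM in -Fe roots and had no read in the +Fe libraries. With 3 counts over the group as the floor it was at least 59.3-fold higher. Its span overlaps *AT2G30760* and *AT2G30770*, so reads in the overlaps may have been left out or misassigned.

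The Ib bHLH factors, the partners of FIT, rose together. *bHLH38* was at 326, 339 and 281 CPM in *clf* -Fe, against 5.28, 0.91 and 5.23 CPM in *clf* +Fe roots (log2 fold change 6.36, SE 0.75, edgeR adjusted p = 0.00189). *bHLH39*, its neighbour on chromosome 3, was at 350, 323 and 261 CPM, against 15.8, 9.99 and 17.3 CPM (log2 fold change 4.44, SE 0.37, edgeR adjusted p = 0.000165). *bHLH100* was at 226, 140 and 121 CPM, against 0.39, 0.23 and 1.64 CPM (7.78, SE 0.64, edgeR adjusted p = 0.0002, and 8.98 without *clf* +Fe replicate 3). *bHLH101* completed the set, at 81.9, 59.7 and 43.9 CPM on -Fe, against 3.47, 3.06 and 2.90 CPM on +Fe medium (4.30, SE 0.32, edgeR adjusted p = 6.51e-05). These 4 were the members raised among 9 tested of the FIT and bHLH list. *FIT* itself was at 128, 276 and 197 CPM in *clf* -Fe and 44.6, 27.5 and 48.3 CPM in *clf* +Fe roots. Its groups did not overlap, but the log2 fold change of 2.32 (SE 0.63) did not pass the test (edgeR adjusted p = 0.106). It passed with DESeq2 (adjusted p = 0.00182) and in edgeR fits of only the 6 *clf* libraries (adjusted p = 0.0216) and without wild type -Fe replicate 1 (adjusted p = 0.0241). The IVa factors *bHLH18*, *bHLH19*, *bHLH20* and *bHLH25*, which promote the degradation of FIT, did not pass, with log2 fold changes of 1.5, -1.93, -0.35 and 0.18.

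Stretches before *bHLH38* and *bHLH100* are shown because bHLH factors bind the letters CACGTG, and each holds this run, in capitals, beginning 97 bases before the RefSeq start of *bHLH38* and 91 bases before that of *bHLH100*. They lie on the minus strand of TAIR10.1 at chr3:21085246-21085495 for *bHLH38* and chr2:17199455-17199704 for *bHLH100*. The other raised Ib factors, *bHLH39* and *bHLH101*, did not hold the run in the 250 bases before their starts. Of the 9 tested genes of the FIT and bHLH list 3 held it there.
bHLH38: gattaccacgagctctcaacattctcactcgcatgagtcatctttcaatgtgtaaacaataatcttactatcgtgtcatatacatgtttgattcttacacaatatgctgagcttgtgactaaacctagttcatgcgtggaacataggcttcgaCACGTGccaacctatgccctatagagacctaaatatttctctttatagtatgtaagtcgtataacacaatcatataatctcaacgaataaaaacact
bHLH100: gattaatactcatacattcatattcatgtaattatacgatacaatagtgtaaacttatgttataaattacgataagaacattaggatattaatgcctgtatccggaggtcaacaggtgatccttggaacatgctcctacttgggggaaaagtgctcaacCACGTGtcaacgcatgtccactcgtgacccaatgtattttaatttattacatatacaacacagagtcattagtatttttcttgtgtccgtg

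CACGTG, which reads the same on both strands, stood between 250 bases before and 50 bases after the start in 31 of 257 raised genes (12.1%) and 17 of 99 lowered genes (17.2%), beside 8.62% of 20089 promoters of genes tested. In the 250 bases before the start alone, 27 raised genes (10.5%) and 14 lowered genes (14.1%) held it, beside 1447 of 20089 promoters (7.2%). Examples, picked from these as genes described here, are the raised *BTS*, *OPT3*, *MTP8*, *ADH1* and *UPOX*. Lowered examples are *FER4*, *FC2*, *AT1G68650* and *AT2G36885*. The run GNATATNC, bound by the phosphate factor PHR1, stood in 7% of raised, 8.08% of lowered and 6.18% of all promoters. A match is a run of letters, and binding was not measured.

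Of 17 regulators of iron signalling, 10 were raised and 0 lowered (median log2 fold change 2.19). *PYE*, a bHLH factor of the internal iron response, was at 24.1, 30.4 and 24.0 CPM in *clf* -Fe and 5.24, 6.66 and 5.28 CPM in *clf* +Fe roots (2.19, SE 0.21, edgeR adjusted p = 0.000336). *BTS*, a hemerythrin ubiquitin ligase that restrains iron uptake, was at 974, 524 and 398 CPM, against 130, 85.1 and 115 CPM (2.52, SE 0.34, edgeR adjusted p = 0.00355). Its relatives *BTSL1* and *BTSL2* rose by log2 fold changes of 3.14 and 2.16. *MYB72*, which drives the secretion of iron-mobilizing phenolics, was at 16.8, 21.8 and 15.9 CPM in *clf* -Fe roots, against 0, 0 and 0.19 CPM (8.19, SE 0.89, edgeR adjusted p = 0.00103), and its span overlaps a gene for another RNA over 829 bases. Its log2 fold change was 7.53 when *clf* +Fe replicate 1 was dropped. It was 11.7 when *clf* +Fe replicate 3, the +Fe library that held reads of it, was dropped. *MYB10* and *GRF11*, a 14-3-3 protein gene, rose by 5.21 and 4.42. *ILR3*, *bHLH34*, *bHLH104*, *bHLH115* and *bHLH121*, the factors that switch these genes on, did not pass (log2 fold changes 0.05 to 0.73). Without both libraries that stood apart, 7 of the 17 were raised.

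Of 12 tested genes listed under iron uptake at the root surface 4 rose, with a list median of 3.17. They were *FRO2*, *IRT2*, *FRO3* and *FRO5*. Not all of these act at the root surface, as described below. *FRO2*, the ferric chelate reductase, was at 3239, 3994 and 3237 CPM in *clf* -Fe, against 98.2, 10.6 and 148 CPM in *clf* +Fe roots, a log2 fold change of 5.35 (SE 1.08, edgeR adjusted p = 0.0333). *IRT1*, the main ferrous iron importer, was at 3047, 4271 and 3513 CPM, against 162, 16.8 and 303 CPM, and its log2 fold change of 4.49 (SE 1.08) did not pass (edgeR adjusted p = 0.071). For both genes the lowest +Fe library was replicate 2, which stood apart, and no -Fe library came near the +Fe range. The call of *FRO2* was lost without any 1 of the 6 *clf* libraries and without 4 of the wild type libraries, with adjusted p up to 0.14. *IRT1* passed in edgeR without wild type +Fe replicate 1 (adjusted p = 0.0379), with DESeq2 (adjusted p = 0.00046), and with limma on filtered log2(FPKM + 1) and log2(FPKM + 0.1) (adjusted p = 0.0277 and 0.0297), and in no other alternative run. Without *clf* +Fe replicate 3 the log2 fold change was 6.001 for *FRO2* and 5.83 for *IRT2*. Together *IRT1* and *FRO2* took 0.609, 0.745 and 0.639% of all counts in *clf* -Fe libraries, against 0.026, 0.00286 and 0.0458% in *clf* +Fe libraries. *IRT2*, a relative of *IRT1* in internal membranes, rose by 4.98 (SE 0.76, edgeR adjusted p = 0.00881), a call lost without *clf* +Fe replicate 1 (adjusted p = 0.0648). *FRO3*, a reductase of mitochondria, rose by 4.04 (SE 0.44, edgeR adjusted p = 0.00103). *FRO5*, a reductase tied to copper, rose by 3.06, may share reads with *FRO4*, and lost its call in 6 of 12 leave-one-out fits (without any *clf* library but -Fe replicate 1, or without wild type +Fe replicate 2). The proton pumps *AHA7* and *AHA2* did not pass, at log2 fold changes of 3.28 and 1.16. Without the pair of libraries that stood apart, 2 of the 12 were raised.

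Of 16 genes of coumarin synthesis and secretion 10 were raised. All 16 were positive, with a median of 2.07, beside 9817 positive of the 20168 genes tested. Coumarins are phenolics that roots release to mobilize ferric iron. Of the general phenylpropanoid steps *PAL1* was raised by 2.00, *4CL1* by 1.84, *4CL2* by 2.49 and *HCT* by 1.08. *COSY*, which closes the coumarin ring, rose by 1.56 (edgeR adjusted p = 0.0248). *F6'H1*, which opens the branch to scopoletin, was at 1545, 1754 and 1401 CPM in *clf* -Fe, against 176, 139 and 172 CPM in *clf* +Fe roots (3.27, SE 0.62, edgeR adjusted p = 0.027). *S8H* and *CYP82C4*, the oxidases that make fraxetin and sideretin, were also raised. *S8H* was at 565, 892 and 753 CPM, against 5.21, 0.14 and 7.62 CPM (7.41, SE 1.32, edgeR adjusted p = 0.0192), and *CYP82C4* rose by 5.57 (SE 1.22, edgeR adjusted p = 0.0496). *BGLU42*, a glucosidase that frees coumarins for secretion, was at 249, 332 and 273 CPM, against 24.8, 17.8 and 24.7 CPM (3.66, SE 0.43, edgeR adjusted p = 0.00166). The exporter *PDR9* had a log2 fold change of 2.48 and did not pass. *BGLU42* kept its call in all leave-one-out fits, whereas *4CL2* lost it without *clf* -Fe replicate 2 or without any *clf* +Fe library. Without both libraries that stood apart 1 of the 16, *BGLU42*, was raised. Single *clf* libraries mattered as well. The count was 1 without -Fe replicate 2, +Fe replicate 1 or +Fe replicate 3. It was 2 without +Fe replicate 2 and 6 without -Fe replicate 1 or 3.

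Genes that chelate and move iron within the plant were raised in 8 of 21 cases. *NAS4*, a nicotianamine synthase, was at 109, 74.8 and 50.2 CPM in *clf* -Fe, against 2.41, 1.1 and 1.92 CPM in *clf* +Fe roots (5.42, SE 0.38, edgeR adjusted p = 4.33e-05). *NAS1* also rose, by 2.84, while *NAS2*, which is close to it in sequence and may share reads, did not pass (0.09). *OPT3*, which loads iron into the phloem, was at 1699, 1003 and 816 CPM, against 69.7, 46.4 and 81.0 CPM (4.16, SE 0.39, edgeR adjusted p = 0.000336). *NRAMP4*, which releases iron from the vacuole, was at 263, 255 and 218 CPM, against 49.6, 50.6 and 55.1 CPM (2.24, SE 0.15, edgeR adjusted p = 1.94e-05). *ZIF1*, *FPN2* and *MTP8*, which carry nicotianamine or metals into the vacuole, rose by 2.75, 3.38 and 5.73, and the citrate exporter *FRD3* by 1.5. *NRAMP3*, *HMA4* and *YSL2* did not pass, at 0.04, 0.28 and 0.32. *OPT3* and *NAS4* were highest in -Fe replicate 1. Without both libraries that stood apart, 5 of the 21 were raised.

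Iron storage fell. Of 8 tested genes 4 were lowered and 0 raised, and all 8 log2 fold changes were negative (median -3.02). *FER1*, a ferritin that holds iron in plastids, was at 0.68, 2.76 and 4.72 CPM in *clf* -Fe, against 30.2, 30.8 and 28.7 CPM in *clf* +Fe roots (-3.46, SE 0.48, edgeR adjusted p = 0.00444), and its span overlaps another gene over 1334 bases. *FER4* was at 0.40, 0.51 and 0.95 CPM, against 7.72, 10.13 and 7.38 CPM (-3.76, SE 0.41, edgeR adjusted p = 0.000937), and *FER2* fell by 3.22 on the log2 scale. *VTL1*, a vacuolar iron transporter-like gene, had the largest fall by the naming rule, at 0, 0.55 and 0.23 CPM, against 6.94, 7.03 and 5.28 CPM (-4.64, SE 0.73, edgeR adjusted p = 0.00978). *FER3* and *VTL5* had log2 fold changes of -1.29 and -2.82 and did not pass. These 4 calls held in all leave-one-out fits and without both libraries that stood apart. The log2 fold change of *FER1* was -4.14 without *clf* -Fe replicate 3, and that of *VTL1* was -4.02 and -5.83 without *clf* -Fe replicates 1 and 2.

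Few genes of iron-using pathways passed. *SUFB* was the member lowered among 13 genes of iron-sulfur cluster assembly, at 4.47, 11.9 and 18.1 CPM in *clf* -Fe, against 66.5, 52.2 and 59.0 CPM in *clf* +Fe roots (-2.37, SE 0.40, edgeR adjusted p = 0.0126), and the other scaffold and carrier genes lay between -0.82 and 0.24. Of 13 genes for tetrapyrroles, *HEMA1*, which opens the pathway, fell by 2.39 and the ferrochelatase *FC2* by 1.06 on the log2 scale. Among 14 antioxidant enzymes the catalase *CAT1* was at 15.6, 10.7 and 12.7 CPM, against 34.6, 60.4 and 37.8 CPM (-1.76, SE 0.27, edgeR adjusted p = 0.00747), and the stromal peroxidase *SAPX* fell by 2.07. *CSD1* and *CSD2*, copper enzymes, did not pass (-0.61 and -0.55), nor did the iron enzyme *FSD1* (-0.42). Photosynthesis transcripts were also at lower sums in these -Fe libraries (259 to 499 CPM, against 619 to 1609 CPM), and their part in the falls of plastid genes such as *SUFB*, *HEMA1* and *SAPX* was not tested. The call of *SUFB* was lost without *clf* -Fe replicate 2 or *clf* +Fe replicates 1 or 3, that of *SAPX* without *clf* +Fe replicates 1 or 3, that of *HEMA1* (log2 fold change -3.04 without *clf* -Fe replicate 3) without *clf* -Fe replicate 2 or any *clf* +Fe library, and that of *FC2* without any *clf* library but -Fe replicate 1.

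Of 12 zinc transporters and regulators 4 were lowered, 1 was raised and 7 did not pass, with a median log2 fold change of -0.40. DESeq2, edgeR with a replicate block, edgeR with the 6 *clf* libraries alone and edgeR without wild type -Fe replicate 1 each gave 3 raised and 4 lowered. *IRT3* was at 3.30, 4.79 and 9.02 CPM in *clf* -Fe, against 44.6, 41.9 and 38.7 CPM in *clf* +Fe roots (-2.87, SE 0.34, edgeR adjusted p = 0.00162). *ZIP4* was at 2.34, 2.21 and 2.95 CPM, against 9.07, 6.80 and 7.85 CPM (-1.66, SE 0.22, edgeR adjusted p = 0.00332). *ZIP5* fell by 3.33 and *ZIP1* by 1.13 on the log2 scale. *ZIP8* went the other way, at 23.2, 37.5 and 30.0 CPM, against 0.35, 0 and 0.28 CPM (7.07, SE 1.02, edgeR adjusted p = 0.00613, and 7.71 without *clf* +Fe replicate 1). RefSeq gives *ZIP8* no coding sequence, so its rise is not read as that of a working transporter. The regulators of zinc deficiency, *bZIP19* and *bZIP23*, did not pass (0.99 and -0.49). They bind the run TGTCGACA, which reads the same on both strands and was in 4 of 99 promoters of lowered genes (4.04%), in 0 of 257 of raised genes and in 0.324% of all promoters, within 250 bases before to 50 after the start. The 250 bases before *IRT3* (chr1:22447300-22447549) and *ZIP4* (chr1:3667140-3667389) are shown, from the minus strand of TAIR10.1, with this run in capitals.
IRT3: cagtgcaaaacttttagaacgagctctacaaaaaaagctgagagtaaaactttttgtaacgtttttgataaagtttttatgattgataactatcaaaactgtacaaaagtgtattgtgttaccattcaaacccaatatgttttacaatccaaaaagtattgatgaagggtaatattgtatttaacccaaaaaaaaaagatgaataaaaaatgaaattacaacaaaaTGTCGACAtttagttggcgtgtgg
ZIP4: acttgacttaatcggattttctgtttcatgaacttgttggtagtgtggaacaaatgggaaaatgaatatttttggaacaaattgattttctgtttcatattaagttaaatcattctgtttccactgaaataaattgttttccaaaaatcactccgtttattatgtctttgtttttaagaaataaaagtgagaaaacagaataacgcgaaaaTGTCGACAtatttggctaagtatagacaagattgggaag

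The run began 24 bases before the start of *IRT3* and 39 bases before that of *ZIP4*. These were the 2 of 12 zinc list promoters that held it, and those of the lowered *ZIP5* and *ZIP1* did not. Of the other lowered genes *AT5G05600*, an oxygenase of the iron-dependent superfamily, also had it in the 250 bases before its start, and fell by 1.52 on the log2 scale (edgeR adjusted p = 0.00151). Copper uptake had 1 of 5 genes raised. It was *COPT2*, at 74.2, 140 and 110 CPM in *clf* -Fe, against 8.75, 2.87 and 10.5 CPM in *clf* +Fe roots (3.87, SE 0.66, edgeR adjusted p = 0.0151), and this call was lost without *clf* -Fe replicate 2 or *clf* +Fe replicates 1 or 3. *COPT1* and *SPL7*, the copper sensor, were at 0.06 and 0.10 and did not pass.

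**Figure D2:**
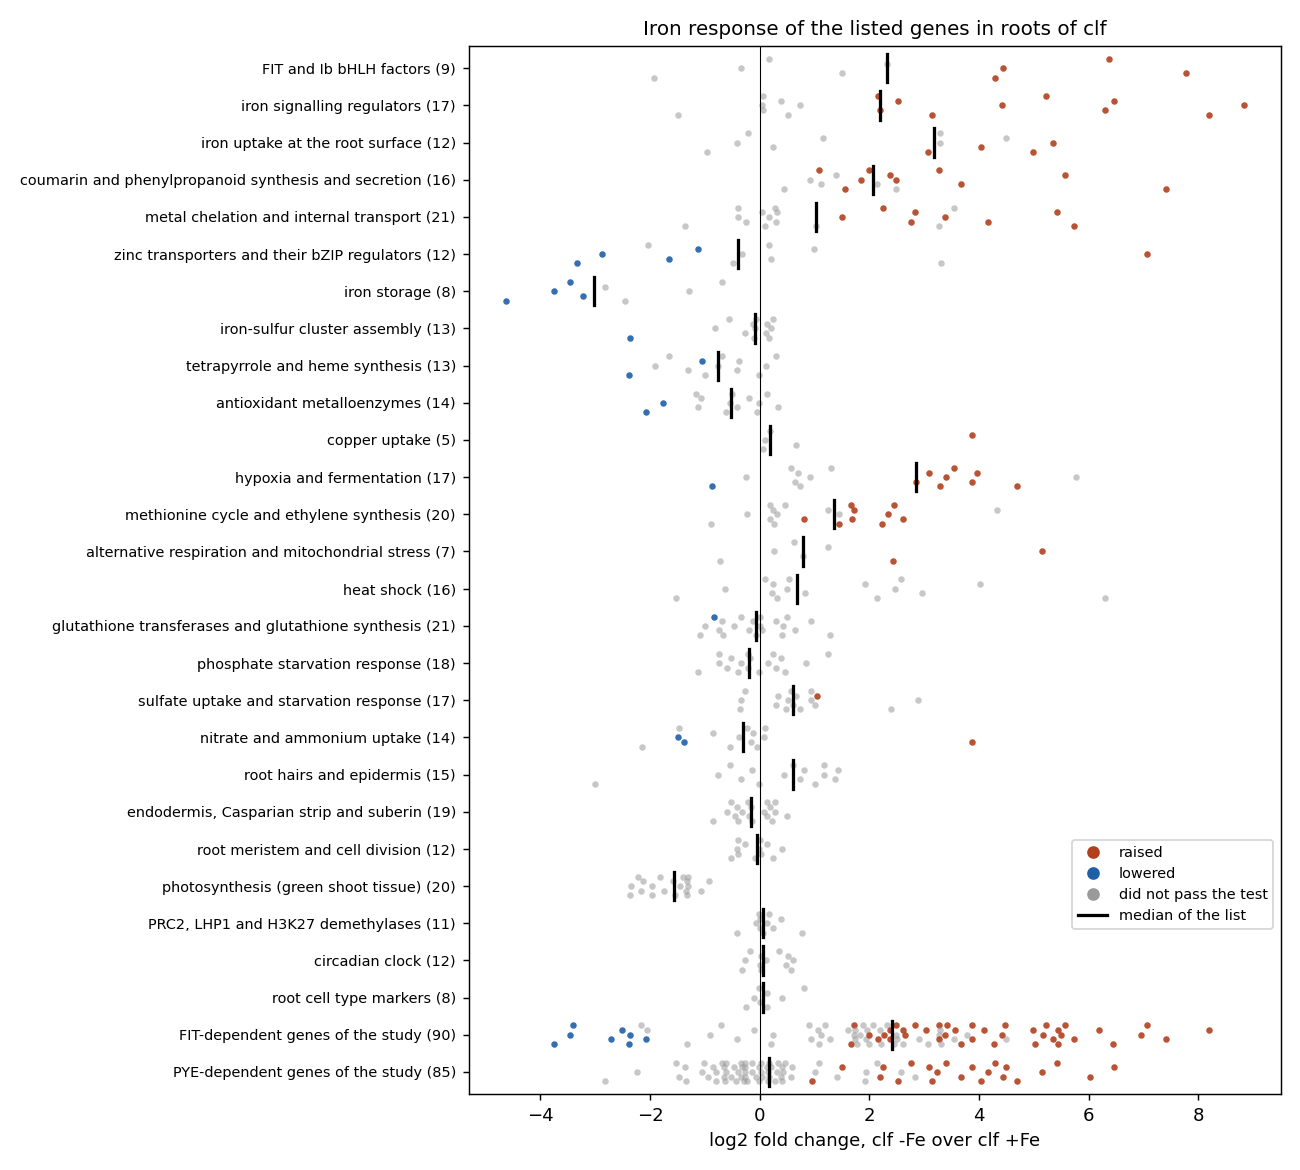
Log2 fold change of *clf* -Fe over *clf* +Fe for the tested members of each gene list (number in brackets), raised in red, lowered in blue, grey where the test was not passed, with the list median as a black bar. Iron storage has a median of -3.02, iron uptake one of 3.17 and hypoxia one of 2.85, while phosphate, endodermis and meristem lists have 0 calls.

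Genes of the low oxygen response were raised in 8 of 17 cases, and 1 was lowered. *PCO1*, an oxygen-sensing cysteine oxidase, was at 56.0, 38.7 and 29.2 CPM in *clf* -Fe, against 2.52, 2.92 and 2.48 CPM in *clf* +Fe roots (3.97, SE 0.24, edgeR adjusted p = 9.59e-06). *ADH1*, the alcohol dehydrogenase of fermentation, was at 478, 195 and 127 CPM, against 9.71, 9.22 and 12.0 CPM (4.69, SE 0.46, edgeR adjusted p = 0.000476). *SUS4*, *HB1*, *LBD41*, *HRA1*, *PCO2* and *PDC1* rose by 3.87, 3.54, 3.09, 3.40, 3.29 and 2.85. *RAP2.12*, which activates this set, fell by 0.88 on the log2 scale (edgeR adjusted p = 0.00848). All 8 raised genes were highest in -Fe replicate 1, which was over 1 log2 unit above the mean of the other -Fe libraries in 13 of the 17 genes, with a list median of 1.54. That library also had the low *CCA1* and high *TOC1*. Without it the log2 fold change of *ADH1* was 3.97. Without both libraries that stood apart, 5 of the 17 were raised and 0 lowered, so the call of *RAP2.12* was lost. Of 7 genes of alternative respiration and mitochondrial stress 2 were raised, and 3 were over 1 log2 unit higher in -Fe replicate 1 than in the mean of the other -Fe libraries. *UPOX* was at 104, 14.2 and 4.99 CPM, against 1.38, 1.14 and 0.93 CPM (5.14, SE 1.04, edgeR adjusted p = 0.0327), and *NAC013* rose by 2.42, while *AOX1A*, an alternative oxidase, did not pass (0.79). Without *clf* -Fe replicate 1 the log2 fold changes were 3.04 for *UPOX* and 1.76 for *NAC013*, and without both libraries that stood apart 0 of the 7 were raised. The calls of *UPOX* and *NAC013* were lost without any *clf* +Fe library, that of *NAC013* also without *clf* -Fe replicate 2, and that of *UPOX* also without wild type -Fe replicate 2 or +Fe replicates 2 or 3. Among the nitrate genes *NRT1.8*, which unloads nitrate from the xylem, was at 269, 83.0 and 58.5 CPM in *clf* -Fe, against 7.47, 15.0 and 5.61 CPM in *clf* +Fe roots (3.87, SE 0.58, edgeR adjusted p = 0.00765, or 0.0556 without *clf* +Fe replicate 1). Without *clf* -Fe replicate 1 the log2 fold change of *NRT1.8* was 2.92. The nitrite reductase *NIR1* and the repressor *LBD39* fell by 1.49 and 1.39 on the log2 scale, and the call of *NIR1* was lost without any 1 of the 6 *clf* libraries.

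**Figure D3:**
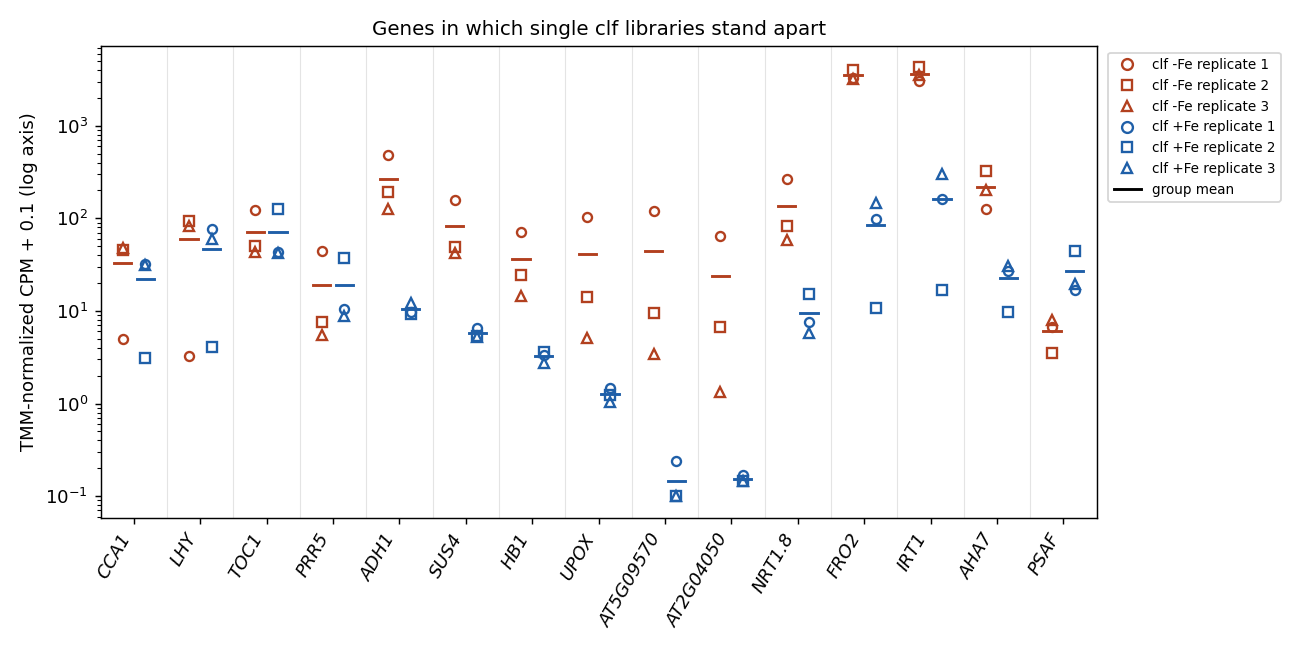
TMM-normalized CPM plus 0.1 (log axis) of 15 genes in the 6 *clf* libraries, -Fe in red left of +Fe in blue, with a symbol per replicate and a bar at the group mean. Clock genes set -Fe replicate 1 and +Fe replicate 2 apart, *ADH1*, *UPOX* and *AT5G09570* are highest in -Fe replicate 1, and *FRO2* and *IRT1* are lowest in +Fe replicate 2.

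The methionine cycle, which supplies nicotianamine and ethylene, was raised in 9 of 20 genes and lowered in 0. *SAM1*, an S-adenosylmethionine synthetase, was at 4726, 6772 and 5925 CPM in *clf* -Fe, against 1305, 979 and 1180 CPM in *clf* +Fe roots (2.33, SE 0.34, edgeR adjusted p = 0.00485). The salvage enzymes *MTK*, *MTI1*, *DEP1* and *ARD2* rose by 1.66, 2.60, 1.67 and 2.23. Each of these steps passed the test. *ACS2*, which makes the precursor of ethylene, was at 12.6, 15.7 and 11.3 CPM, against 2.30, 2.69 and 2.2 CPM (2.46, SE 0.23, edgeR adjusted p = 0.000356), and *ACO1* rose by 1.45. *SAM2* did not pass (0.46), and reads of *SAM1* and *SAM2* may be shared. Without both libraries that stood apart, 5 of the 20 were raised.

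Several other lists had no calls. No member passed the test among 18 phosphate starvation genes (median -0.19), 15 root hair genes (0.61), 19 genes of the endodermis and suberin (-0.16), 12 of the meristem and cell division (-0.05), 16 heat shock genes (0.68), 12 clock genes (0.07) or 11 genes of PRC2 and H3K27 demethylation (0.06). *SWN*, the other methyltransferase of vegetative PRC2, was at 42.0, 37.2 and 38.1 CPM in *clf* -Fe and 56.2, 52.7 and 48.1 CPM in *clf* +Fe roots (-0.42, SE 0.13, edgeR adjusted p = 0.166). *RSL2*, a root hair factor, was at 0.77, 1.38 and 1.86 CPM, against 10.8, 11.7 and 9.72 CPM, and also did not pass (-3.01, SE 0.77, edgeR adjusted p = 0.0876). Its groups did not overlap. In -Fe replicate 1, 11 of the 15 root hair genes were over 1 log2 unit below the mean of the other -Fe libraries. Photosynthesis genes, with 0 called here and a median of -1.56, had 9 of 20 lowered by DESeq2 and 7 by edgeR without wild type -Fe replicate 1. Of 21 glutathione genes *GSH1*, for glutamate-cysteine ligase, fell by 0.83 on the log2 scale, and of 17 sulfate genes, 14 of them positive, *SDI2* rose by 1.05. DESeq2 raised 4 of these 17, as did edgeR without wild type -Fe replicate 1. The call of *GSH1* was lost without any *clf* library but -Fe replicate 3, and that of *SDI2* without any 1 of the 6 *clf* libraries or without wild type -Fe replicate 2 or +Fe replicates 2 or 3.

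The FIT-dependent genes that the study lists had 40 of 90 raised and 8 lowered (median 2.42), and its PYE-dependent genes 22 of 85 raised and 0 lowered (median 0.16). Both lists were chosen by the study for its own comparison of these libraries, so the counts are not independent evidence of their direction. Without the pair of libraries that stood apart the counts were 19 and 7 of 90, and 18 and 0 of 85. In +Fe replicate 2, 29 of the 90 FIT-dependent genes were over 1 log2 unit below the mean of the other +Fe libraries. *ATPMEPCRB*, for a pectin methylesterase, rose by 5.45 (SE 0.48), *CGLD27*, for a plastid protein, by 4.48 and *ORG1* by 3.23, and these calls held in all leave-one-out fits.

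By the naming rule the largest rises outside the genes above were spread over unlike families. *AT5G09570*, for a Cox19-like mitochondrial protein, was at 121, 9.35 and 3.36 CPM in *clf* -Fe, against 0.14, 0 and 0 CPM in *clf* +Fe roots (9.53, SE 1.75, edgeR adjusted p = 0.0225). *AT2G04050*, for a MATE efflux protein, was at 64.3, 6.63 and 1.22 CPM, against 0.07, 0.05 and 0.05 CPM (8.62, SE 1.64, edgeR adjusted p = 0.027). In both, -Fe replicate 1 stood far above the other -Fe libraries, and both calls were lost without any *clf* +Fe library. Without -Fe replicate 1 the log2 fold changes were 6.71 for *AT5G09570* and 6.004 for *AT2G04050*, and without +Fe replicate 1 that of *AT5G09570* was 12.96. The defensin-like *AT1G13609* was steady, at 110, 91.9 and 80.5 CPM, against 0.60, 0.23 and 0.28 CPM (7.92, SE 0.40, edgeR adjusted p = 3.56e-06, and 8.51 without *clf* +Fe replicate 1). Its neighbour *AT1G13608*, of the same family, was at 0.81, 2.53 and 1.77 CPM on -Fe medium with no read on +Fe medium, at least 40.6-fold higher. Likewise without a read in *clf* +Fe roots were the pseudogene *AT1G47405*, beside *IMA1*, at least 72.5-fold higher, the cupin gene *AT4G36700*, at least 53.3-fold, and the precursor gene *MIR169c*, at least 37.2-fold. The call of *AT4G36700* was lost without any *clf* library but -Fe replicate 3 and without 5 of the 6 wild type libraries, those of *AT1G13608* without *clf* -Fe replicate 2 or any *clf* +Fe library, and that of *AT1G47405* without *clf* +Fe replicates 1 or 3.

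Among the largest falls beyond storage and zinc genes was *AT3G49160*, of the pyruvate kinase family, at 0.04, 0.46 and 0.77 CPM in *clf* -Fe, against 8.22, 7.30 and 5.51 CPM in *clf* +Fe roots (-4.06, SE 0.57, edgeR adjusted p = 0.00429). *AT2G36885*, annotated as an initiation factor of translation, and *AT1G68650*, of the UPF0016 family, had log2 fold changes of -3.42 and -2.71, and *ERF53*, for an ethylene response factor, fell by 2.72. Without *clf* -Fe replicate 3 the log2 fold changes were -4.84 for *AT3G49160*, -4.29 for *AT2G36885* and -3.31 for *AT1G68650*, and without *clf* -Fe replicate 1 that of *AT2G36885* was -2.815. The call of *AT2G36885* was lost in 9 of 12 leave-one-out fits, that of *AT1G68650* without *clf* -Fe replicate 2 or *clf* +Fe replicates 1 or 3, and that of *ERF53* without *clf* -Fe replicate 2.

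Scaled to gene length, in the authors' FPKM, the raised genes included some of the most abundant transcripts of the root. *GLP5*, for a germin-like protein, averaged 4237 FPKM in *clf* -Fe and 477 FPKM in *clf* +Fe roots (n = 3 each), rank 2 and rank 188 of the genes tested. *SAM1* averaged 3550 and 768 FPKM, and *FRO2* 1357 and 35.8 FPKM, rank 28 and rank 3616. Enzymes of glycolysis were also on this list. *GAPC1*, *LOS2* and *FBA8*, for a dehydrogenase, an enolase and an aldolase, averaged 2111, 1814 and 1355 FPKM in -Fe roots, against 1069, 766 and 768 FPKM in +Fe roots, and their log2 fold changes were 1.09, 1.36 and 0.94. *iPGAM1* and *iPGAM2*, for phosphoglycerate mutases, rose by 1.04 and 1.26. These glycolytic genes were picked after their values were seen.

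A minority of the raised genes had short coding sequences or lay side by side. Coding sequences of up to 300 bases made up 8.3% of the raised coding genes (21 of 253), 2.02% of the lowered (2 of 99) and 3.54% of all tested. Of the 257 raised genes 24 lay beside another raised gene, a count with no background over all genes. They included *IMA1* with *IMA2*, the defensin-like pair, the lectin genes *AT1G52120* and *AT1G52130* (6.56 and 6.37), and *bHLH38* with *bHLH39* and *EDA7* (0.98). Of the lowered genes 2 were neighbours. Only 59 raised and 17 lowered genes were members of the 26 function lists, which leaves 198 and 82 outside them.

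Nearly all of these genes had the same direction in wild type roots. Of the 257 raised genes 256 had a positive log2 fold change in wild type, with *AT1G62045* the exception, and all 99 lowered genes had a negative one, beside 15313 of the 20168 genes tested with the same sign in both genotypes. A test of the difference between the responses, *clf* minus wild type, called 0 genes (0%) with edgeR and 3 with DESeq2. Before adjustment, p was under 0.05 for 160 positive and 160 negative differences, of which 12 and 10 belonged to raised genes. A missed threshold does not show that the responses were alike. For *FRO2* the difference was 1.59 on the log2 scale (95% interval -1.24 to 4.42) and for *FIT* 0.36 (-1.52 to 2.24). For *IRT1* the 95% interval of the difference ran from -1.90 to 3.92. Wild type replicate 1 was the lowest wild type library on each medium for all of these genes. In wild type roots *FRO2* was at 677, 2860 and 3273 CPM on -Fe and 28.4, 224 and 250 CPM on +Fe medium. *IRT1* was at 899, 3411 and 3567 CPM, and 36.0, 332 and 339 CPM. *FIT* was at 30.1, 156 and 168 CPM, and 12.0, 40.9 and 38.2 CPM. The weight of this replicate, or of the low *clf* +Fe replicate 2, on the differences was not tested.

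Among the genes called in *clf*, the 5 with the smallest unadjusted p for this difference were *AT5G41290*, *IMA2*, *AT5G04810*, *AT1G13609* and *IMA1*. *IMA2* had the smaller log2 fold change in *clf*, by a difference of -3.11 (95% interval -4.13 to -2.09, edgeR adjusted p = 0.205). On -Fe medium it was at 111, 93.9 and 81.4 CPM in *clf*, against 145, 99.5 and 87.6 CPM in wild type roots, and on +Fe medium at 1.13, 0.82 and 1.68 CPM in *clf*, against 0.13, 0.21 and 0.14 CPM in wild type. The iron deficient levels overlapped between the genotypes, and the iron sufficient levels did not. *IMA1* had a difference of -2.66 (95% interval -4.39 to -0.93) with the same layout, at 0.71, 0.27 and 0.56 CPM in *clf* +Fe, against 0, 0.21 and 0.10 CPM in wild type +Fe roots. Both IMA genes were near the floor in wild type +Fe roots, so few reads set the size of these differences. *AT5G41290*, of a family related to receptor kinases, differed instead on -Fe medium, at 2.90, 2.21 and 1.77 CPM in *clf*, against 14.9, 14.7 and 14.3 CPM in wild type (difference -2.55, 95% interval -3.26 to -1.85, edgeR adjusted p = 0.0928). DESeq2 called *IMA2*, *AT5G41290* and *WRKY59*, all 3 more negative in *clf* (adjusted p 0.00203, 0.000125 and 0.000378). *WRKY59* was near the floor, at 0.60, 0.69 and 0.50 CPM in *clf* -Fe and 0.46, 0.41 and 0.19 CPM in *clf* +Fe roots. In wild type it was at 2.47, 2.57 and 2.95 CPM on -Fe and 0, 0 and 0 CPM on +Fe medium. The size of its difference thus rests on a group at 0 CPM. *AT1G13609* was also near the floor in wild type +Fe roots, at 0, 0.16 and 0.10 CPM. *AT1G13609* had a difference of -2.38 and *AT5G04810*, for a pentatricopeptide protein, one of 0.79, both with an edgeR adjusted p of 1.

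**Figure D4:**
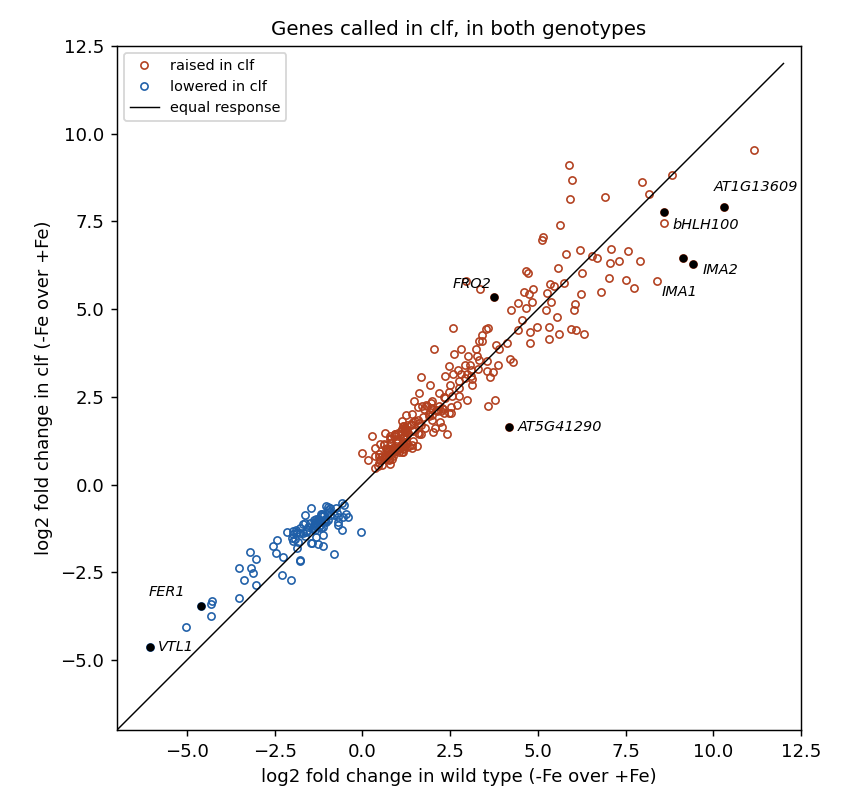
Log2 fold change of -Fe over +Fe in *clf* (vertical axis) and in wild type (horizontal axis) for the 257 raised (red) and 99 lowered (blue) genes of *clf*, with a line at equal response. Points were chosen by their *clf* values, *IMA1*, *IMA2* and *AT5G41290* lie below the line, and 0 genes passed the edgeR test of the difference.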

How the data were processed

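RNA of *Arabidopsis* roots was sequenced as paired-end reads in 12 libraries, described as 3 biological replicates of each of 4 groups. Nothing in the labels ties replicates to separate plates, so p-values measure the spread between these libraries. The authors mapped the reads to TAIR10 (the submitters' processing notes name TopHat2) and deposited whole-number counts of reads in each gene, from the union mode of HTSeq. Neither a version of the aligner nor a strand setting is given in the sources used here. Reads in overlaps of genes, or matching near-identical genes, may have been left out or misassigned, which was not checked. The authors also deposited FPKM values, which scale these counts to gene length and library size. A last unnamed column of the count table held no measurement.

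Counts were tested with edgeR 4.0.16 in R 4.3.3 (filterByExpr, TMM, robust quasi-likelihood fit of 4 groups over 12 libraries, 8 residual degrees of freedom), with Benjamini-Hochberg adjustment over 20168 genes and a threshold of 0.05. The SE of a log2 fold change was its size divided by the square root of F. The difference between genotypes was the contrast of both responses. DESeq2 1.42.0 and limma 3.58.1 served as alternatives. Library totals are given in the report. On simulated counts for the *clf* comparison, 21% of 100 simulated 2-fold changes and 77% of 100 simulated 4-fold changes were recovered, with 1 false call over 19973 genes, and for the difference 3% and 62%, with 4 false calls over 19991 genes. A group without a read was given a floor of 3 counts over the group for its lower bound, which covers counting error only.

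The members and gene lists were chosen with earlier results of these data known. Genes were named by a rule: the 10 largest rises and 10 largest falls among called genes whose libraries did not overlap and whose higher group averaged 1 CPM or more, the 3 members of each list with the smallest p, the 5 called genes with the smallest p for the difference, and *CLF*, *FIT*, *FRO2*, *IRT1* and the IMA genes. Other genes were named after their values were seen. Sequences and coordinates are from RefSeq (TAIR10.1), in which 31912 of 32678 gene IDs matched. Figures were drawn with matplotlib 3.10.9.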

Additional observations from a re-analysis of the deposited data

How the results depend on the processing

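No named gene that was called changed sign under any alternative. Of 101 named genes 3 did, *CLF*, *PRR7* and *RVE8*, none of them called, and *CLF* ranged from -0.17 to 0.12 over the leave-one-out fits. Without 1 library at a time, raised genes numbered 91 to 424 and lowered genes 34 to 194. DESeq2 raised 570 and lowered 365 genes, which included 255 of the 257 and all 99 called by edgeR, and called 3 differences between genotypes, all more negative in *clf*. With limma on FPKM, lowered genes numbered 198 with a pseudocount of 1, 180 with 0.1 and 168 without a filter, and the median of all genes was -0.105, -0.12 and -0.0648. Leaving out both *clf* libraries that stood apart, an alternative chosen after seeing the data, gave 107 raised and 24 lowered genes. Of 61 named genes called, 36 kept the call in all 12 leave-one-out fits and 14 in every alternative that gave a value, and 14 named genes not called passed in some alternative. The cause of these changes was not tested. On simulated counts 21% of 100 2-fold changes were recovered in the *clf* comparison, so many changes of this size may have been missed.

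Same-numbered *clf* libraries did not consistently deviate together. Deviations of same-numbered libraries correlated at -0.394, -0.345 and 0.432, and not every library correlated best with its own number. The libraries that stood apart, -Fe replicate 1 and +Fe replicate 2, correlated at 0.565. They weigh on all of these values, which therefore cannot show whether samples shared a plate or batch. With a replicate block over 12 libraries 267 genes were raised and 109 lowered, of which 228 and 80 were shared with the fit without it. In the 6 *clf* libraries alone the block gave 30 raised and 1 lowered, against 310 and 115 without it. Of the 310 and 115, 191 and 62 were shared with the main fit of 12 libraries. Among the genes that did not pass there were *FRO2* and *NRT1.8* (edgeR adjusted p = 0.0562 and 0.0646), *UPOX*, *NAC013*, *SUFB*, *SAPX* and *HEMA1*, whereas *FIT* passed (edgeR adjusted p = 0.0216). The fit of 6 libraries with the block has fewer residual degrees of freedom, so nothing is read from the drop to 30 and 1.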
